A study of Mus musculus with 8 samples.

Results

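The 10 genes described here are those by which principal cells of the kidney collecting duct take up sodium and respond to aldosterone and vasopressin. They are the epithelial sodium channel (ENaC) subunits *Scnn1a*, *Scnn1b* and *Scnn1g*, the FXYD proteins *Fxyd4* and *Fxyd2*, the vasopressin receptor *Avpr2*, the steroid enzyme *Hsd11b2*, the mineralocorticoid receptor *Nr3c2*, the kinase *Sgk1* and the ubiquitin ligase *Nedd4l*. They were chosen by symbol, for their known role, and are 10 of the 24063 gene symbols listed. RNA-Seq was carried out on 8 cultures of tubuloids, which are three-dimensional structures, spheroid or tubular, that form in Matrigel when fragments of young mouse kidney tubules are plated. GDNF is a growth factor that drives branching of the ureteric bud, from which the collecting duct forms. The question was which genes differ, at the end of the culture, between tubuloids that had received a GDNF pulse and those that had not.

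Both groups carried the genotype *Pkd2* fl/fl *Pax8*-rtTA TetO-Cre mTmG and came from kidneys labelled postnatal day 7 to 10. The Cre is driven by *Pax8* through a doxycycline-inducible activator, and no doxycycline is named for these cultures. The 4 GDNF cultures (numbers 6, 12, 17 and 22) had GDNF in the growth factor medium for 24 h, and the 4 control cultures (numbers 3, 7, 14 and 21) had the same medium without it. RNA was taken on culture day 7. The labels do not say whether the cultures came from separate animals, so p-values measure the spread between cultures, part of which may be technical.

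In the collecting duct, sodium enters principal cells through ENaC at the apical membrane and leaves through the Na,K-ATPase at the basolateral membrane, whose kinetics FXYD proteins tune. Aldosterone acts through the mineralocorticoid receptor, which 11-beta-hydroxysteroid dehydrogenase type II, the product of *Hsd11b2*, protects by inactivating glucocorticoids. An early target of the receptor is *Sgk1*, whose kinase phosphorylates NEDD4L and so keeps ENaC from being ubiquitinated and removed. Vasopressin acts through AVPR2 and cAMP on the same cells to raise water and sodium uptake.

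Sequences at annotated starts are shown because binding of the activated receptor to corticosteroid response elements is the step that links *Nr3c2* to its targets. RefSeq windows on GRCm38.p6, each holding 250 bases before and 50 bases after an annotated start, were listed for 6 of the 10 members (*Scnn1b*, *Scnn1g*, *Fxyd4*, *Avpr2*, *Nr3c2* and *Sgk1*). Each was searched on both strands for the paired element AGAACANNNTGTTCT, for the single element AGAACA, which the paired element contains on each strand, and for the GATA element AGATAA. The paired element was present in 3 of 32851 windows (0.00913%), of which 1 was a window of *Sgk1*. The single element was present in 19.0% of windows and the GATA element in 11.2%. Of the 6 windows of *Sgk1*, this one lies before an internal start, and the paired element in it begins 189 bases before that start and 965 bases before the last start listed for the gene. A further single element begins 242 bases before the same start. In other *Sgk1* windows, single elements begin 195 and 13 bases and GATA elements 27 and 203 bases before their respective starts, and the window at the last start held none of these. In the window of *Avpr2*, single elements begin 59 and 50 bases before its start. The windows of *Avpr2*, *Nr3c2* and *Fxyd4* lie inside the gene spans given below, so their starts are internal too. None of the letters searched for was found in the windows of *Scnn1b*, *Scnn1g*, *Fxyd4* and *Nr3c2*. A match is a match of letters, not a measured binding site. The windows of *Sgk1*, *Avpr2*, the neighbouring ENaC genes and *Fxyd4* follow, with matched elements in capitals.
*Sgk1*, GRCm38.p6 chr10:21993640-21993939, plus strand: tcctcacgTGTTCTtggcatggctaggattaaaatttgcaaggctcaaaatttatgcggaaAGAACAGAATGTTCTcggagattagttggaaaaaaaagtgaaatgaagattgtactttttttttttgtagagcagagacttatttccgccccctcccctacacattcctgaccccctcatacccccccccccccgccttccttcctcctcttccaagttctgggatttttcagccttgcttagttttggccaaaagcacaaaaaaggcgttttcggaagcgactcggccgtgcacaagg
*Avpr2*, GRCm38.p6 chrX:73891852-73892151, plus strand: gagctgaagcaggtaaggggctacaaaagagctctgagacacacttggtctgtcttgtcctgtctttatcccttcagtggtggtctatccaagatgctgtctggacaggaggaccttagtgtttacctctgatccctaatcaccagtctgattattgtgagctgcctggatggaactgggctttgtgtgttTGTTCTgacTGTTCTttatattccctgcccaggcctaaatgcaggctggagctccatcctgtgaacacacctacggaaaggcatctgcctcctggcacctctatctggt
*Scnn1b*, GRCm38.p6 chr7:121864788-121865087, plus strand: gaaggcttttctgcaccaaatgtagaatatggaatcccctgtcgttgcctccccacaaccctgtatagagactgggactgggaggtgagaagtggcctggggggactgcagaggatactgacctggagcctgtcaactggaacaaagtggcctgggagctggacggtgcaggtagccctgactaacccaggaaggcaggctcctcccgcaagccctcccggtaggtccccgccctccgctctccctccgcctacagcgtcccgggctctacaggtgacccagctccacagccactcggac
*Scnn1g*, GRCm38.p6 chr7:121734229-121734528, plus strand: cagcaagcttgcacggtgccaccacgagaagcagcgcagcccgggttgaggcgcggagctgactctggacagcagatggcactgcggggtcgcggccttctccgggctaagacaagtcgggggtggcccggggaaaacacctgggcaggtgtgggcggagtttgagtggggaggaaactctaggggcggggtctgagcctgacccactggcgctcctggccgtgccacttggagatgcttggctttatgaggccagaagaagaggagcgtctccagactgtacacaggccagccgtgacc
*Fxyd4*, GRCm38.p6 chr6:117937286-117937585, minus strand: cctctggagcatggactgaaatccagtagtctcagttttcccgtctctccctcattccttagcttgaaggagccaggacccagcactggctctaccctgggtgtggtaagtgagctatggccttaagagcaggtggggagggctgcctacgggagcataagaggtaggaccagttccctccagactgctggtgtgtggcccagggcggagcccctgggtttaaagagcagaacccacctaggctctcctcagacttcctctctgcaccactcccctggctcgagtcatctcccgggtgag

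All 10 members passed the filter on low counts and were among the 16557 genes tested. Over all transcripts, a culture had 72991721 to 97490625 counts, in which a read shared by transcripts of a gene counts for each. Of the principal cell markers, *Gata3* was the most abundant, at 6.48 to 27.4 TPM (the deposited unit, scaled by transcript length and library), while the water channel *Aqp2*, which defines mature principal cells, was at most 0.356 TPM and 25 counts. Summed principal cell markers were 11.2 to 29.7 TPM in the GDNF cultures and 7.67 to 17.7 TPM in the control cultures. *Gata3* made up most of this sum in every culture. *Xist* RNA marked GDNF cultures 6 and 12 and control cultures 3 and 7 (12.5 to 68.0 TPM), and Y-linked RNA marked GDNF cultures 17 and 22 and control cultures 14 and 21 (115.8 to 194.3 TPM), so each group held 2 cultures of each kind. GDNF culture 6 and control culture 3 also held 6.46 and 1.502 TPM of Y-linked RNA. Control culture 3 stood apart in composition, with a TMM factor (the correction for composition between libraries) of 0.790 against 0.963 to 1.11 in the others.

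No member differed between GDNF and control cultures beyond the spread between cultures. In the quasi-likelihood test of edgeR, with p-values adjusted over all genes by the method of Benjamini and Hochberg, the members' adjusted p lay between 0.448 (*Nr3c2*) and 0.932 (*Avpr2*). None of the 16557 genes passed an adjusted p of 0.05 in that test (0%), where the lowest value was 0.167. Without adjustment, 22.1% of genes had a p of 0.05 or less and 0 of the 10 members did, the smallest member p being 0.215. DESeq2 called 9.02% of the 11724 genes to which it gave an adjusted p. It called 0 members and gave 3 of them (*Scnn1a*, *Scnn1g* and *Hsd11b2*) no adjusted p. GDNF and control cultures overlapped for all 10 members in CPM (counts scaled to the library size, with TMM factors) and in TPM, whereas they were separate for 13.2% of genes in CPM and 21.2% in TPM.

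The estimated log2 fold changes, GDNF minus control, were above 0 for 8 members and below 0 for *Fxyd2* and *Avpr2*, with a median of 0.29. The median over all genes tested was 0.033, and 52.5% of genes were above 0. In TPM, which is not corrected for composition, all 10 members had a higher mean in the GDNF cultures, as did 78.8% of all genes tested. The standard errors of the members were wide, from 0.25 for *Sgk1* to 0.86 for *Scnn1b*, against a median of 0.24 over all genes. With total counts alone as the scale, the median of all genes moved to 0.25 and *Avpr2* moved to 0.12, above 0. These are bulk libraries, in which fewer cells of a type and less RNA per cell cannot be told apart.

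**Figure D1:**
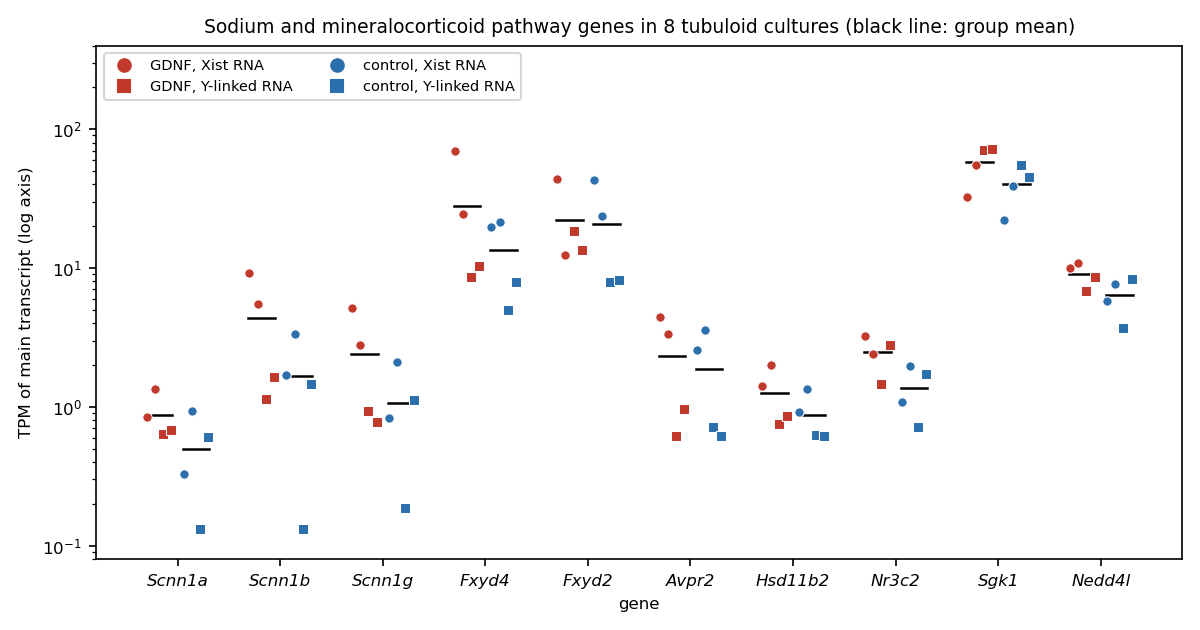
TPM of each member's main transcript (vertical log axis) for the 4 GDNF (red) and 4 control (blue) cultures, with circles for cultures with Xist RNA, squares for cultures with Y-linked RNA and black lines for group means. The groups overlapped for every gene, while circles lay above squares for Fxyd4 and Avpr2 and, by a narrow margin, for Scnn1b and Hsd11b2.

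By mean TPM over the 8 cultures, the members fell into a high, a middle and a low range. *Sgk1* was first at 48.9 TPM (range 22.2 to 71.8), followed by *Fxyd2* at 21.3 TPM (7.98 to 43.8) and *Fxyd4* at 20.8 TPM (4.95 to 69.3). *Sgk1* exceeded *Fxyd2* in 6 of 8 cultures and *Fxyd2* exceeded *Fxyd4* in 6 of 8, so the order of these genes was not the same in every culture. *Nedd4l* came next at 7.70 TPM (3.71 to 10.8) and exceeded *Scnn1b*, the next in order, in 8 of 8 cultures. *Scnn1b* (3.02 TPM), *Avpr2* (2.10 TPM), *Nr3c2* (1.92 TPM), *Scnn1g* (1.74 TPM) and *Hsd11b2* (1.06 TPM) followed. Each of the first 4 of these exceeded the next in only 5 of 8 cultures. *Scnn1a* was lowest at 0.689 TPM, and *Hsd11b2* exceeded it in 8 of 8 cultures.

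The ENaC subunits were measured at low levels, and *Scnn1b* and *Scnn1g* had the widest spans between the lowest and highest culture of the 10 members. *Scnn1a* (chr6:125314271-125344943 on GRCm38) encodes the alpha subunit, without which the channel hardly reaches the membrane. It was at 0.847, 1.34, 0.639 and 0.682 TPM in GDNF cultures 6, 12, 17 and 22 and at 0.328, 0.934, 0.132 and 0.606 TPM in control cultures 3, 7, 14 and 21. Control cultures 3 and 14 were below all others, and the other 2 controls lay within or just below the GDNF range. The means were 0.878 ± 0.324 and 0.4999 ± 0.348 TPM (SD, n = 4 cultures each), resting on 27 to 236 counts per culture, and an exact permutation test (two-sided) gave p = 0.200 for the difference. The edgeR log2 fold change was 0.45 ± 0.54 (SE), with a 95% interval from -0.75 to 1.64 (adjusted p = 0.644).

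*Scnn1b* (chr7:121865038-121918728) and *Scnn1g* (chr7:121734420-121768482) encode the beta and gamma subunits and lie next to each other on chromosome 7. *Scnn1b* was at 9.23, 5.49, 1.15 and 1.63 TPM in GDNF cultures 6, 12, 17 and 22 and at 1.70, 3.36, 0.133 and 1.47 TPM in control cultures 3, 7, 14 and 21. These are values of its most counted transcript, a noncoding record with a mean count of 439.75, against 438.88 for a coding transcript. The coding transcript was at 9.73, 5.78, 1.21 and 1.72 TPM in the GDNF cultures and 1.80, 3.55, 0.140 and 1.54 TPM in the controls. GDNF cultures 6 and 12 were above all controls, while GDNF cultures 17 and 22 lay among them. The means were 4.37 ± 3.78 and 1.67 ± 1.33 TPM (exact permutation test, two-sided, p = 0.286), and the highest culture had 69.6 times the level of the lowest, the widest span of the 10 members. In edgeR the log2 fold change was 1.01 ± 0.86 (SE; 95% interval -0.92 to 2.93, adjusted p = 0.502), so the data allowed anything from a 0.530-fold to a 7.64-fold level in the GDNF cultures.

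*Scnn1g* followed the same order at its upper end, with 5.15, 2.80, 0.934 and 0.778 TPM in the GDNF cultures and 0.833, 2.12, 0.185 and 1.12 TPM in the controls. Again GDNF cultures 6 and 12 were highest and control culture 14 lowest. The means of 2.42 ± 2.04 and 1.06 ± 0.804 TPM did not separate by an exact permutation test (two-sided, p = 0.286), and the log2 fold change was 0.84 ± 0.76 (SE, adjusted p = 0.527). Leaving out GDNF culture 6 lowered it to 0.092, and the value of *Scnn1b* to 0.28.

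**Figure D2:**
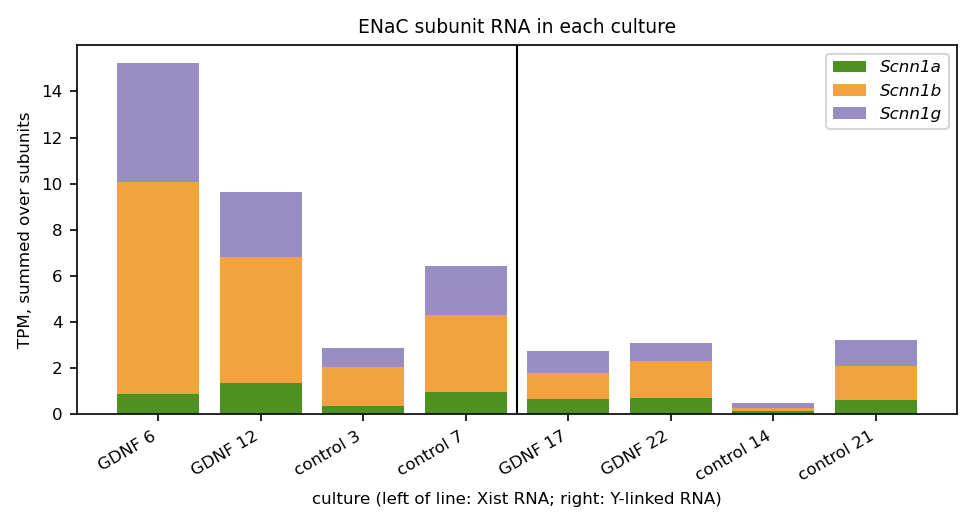
TPM of the 3 ENaC subunits stacked for each culture (vertical axis, summed TPM), with cultures with Xist RNA left of the line and those with Y-linked RNA right of it. GDNF culture 6 reached 15.2 TPM and control culture 14 only 0.450 TPM. Scnn1a was the smallest part, nearly equal to Scnn1b in control culture 14.

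Summed over the subunits, ENaC RNA was 15.2, 9.63, 2.72 and 3.09 TPM in GDNF cultures 6, 12, 17 and 22 and 2.86, 6.41, 0.450 and 3.19 TPM in control cultures 3, 7, 14 and 21. *Scnn1b* gave 29.5 to 60.6% of this sum, *Scnn1g* 25.2 to 41.1% and *Scnn1a* 5.56 to 29.4%. The subunits were therefore present in unequal amounts of RNA, with alpha the least. In control culture 14, alpha and beta were nearly equal, at 0.132 and 0.133 TPM on 27 and 22 counts. The ratio of *Scnn1b* to *Scnn1a* in TPM was 10.9, 4.08, 1.79 and 2.39 in the GDNF cultures and 5.20, 3.602, 1.002 and 2.42 in the controls. Between the groups it differed by less than the spread (log2 difference 0.52, exact permutation test, two-sided, p = 0.543, adjusted over 5 ratios 0.943). It was 3.602 to 10.9 where *Xist* RNA was found and 1.002 to 2.42 where Y-linked RNA was found, without overlap. The ratio of *Scnn1g* to *Scnn1a* showed the same split, at 2.08 to 6.08 against 1.14 to 1.84, and a group difference of 0.13 on the log2 scale (exact permutation test, two-sided, p = 0.914). How often the ratios of other genes split in this way was not examined. In CPM, *Scnn1b* and *Scnn1g* each separated the kinds of culture too, as given below.

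The FXYD proteins are small single-span regulators of the Na,K-ATPase. *Fxyd4* (chr6:117933558-117937714), also called CHIF, is typical of the collecting duct and raises the affinity of the pump for sodium. It was at 69.3, 24.3, 8.59 and 10.3 TPM in GDNF cultures 6, 12, 17 and 22 and at 19.8, 21.6, 4.95 and 7.87 TPM in control cultures 3, 7, 14 and 21. GDNF culture 6 was the highest, GDNF culture 12 was just above the highest control, and GDNF cultures 17 and 22 lay within the control range. The means were 28.1 ± 28.3 and 13.6 ± 8.36 TPM (exact permutation test, two-sided, p = 0.400). Its edgeR log2 fold change was 0.62 ± 0.74 (SE, adjusted p = 0.643). Without GDNF culture 6 this estimate was -0.42 ± 0.62 (adjusted p = 0.705), below 0. The difference of mean TPM without that culture was 0.855, still above 0.

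*Fxyd2* (chr9:45399709-45410278), the gamma subunit of the pump, lowers its sodium affinity and is found along most of the nephron, with most in the thick ascending limb and distal tubule. It was at 43.8, 12.3, 18.4 and 13.4 TPM in the GDNF cultures and at 42.9, 23.7, 7.98 and 8.24 TPM in the controls. One culture of each group, GDNF culture 6 and control culture 3, was highest and the rest were well below. The mean of 21.98 ± 14.8 TPM in the GDNF cultures was close to the 20.7 ± 16.5 TPM of the controls (exact permutation test, two-sided, p = 0.886). The log2 fold change from counts was -0.45 ± 0.68 (SE, adjusted p = 0.720), and without control culture 3, the culture with the low TMM factor, it was 0.46 ± 0.58, above 0. The ratio of *Fxyd4* to *Fxyd2* in TPM ranged from 0.461 in control culture 3 to 1.97 in GDNF culture 12 and differed between groups by less than the spread (log2 difference 0.54, exact permutation test, two-sided, p = 0.343). This ratio overlapped between the kinds of culture, at 0.461 to 1.97 with *Xist* RNA and 0.466 to 0.955 with Y-linked RNA.

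*Avpr2* (chrX:73891765-73894428) encodes the vasopressin receptor coupled to cAMP. It was at 4.43, 3.32, 0.611 and 0.969 TPM in GDNF cultures 6, 12, 17 and 22 and at 2.55, 3.58, 0.719 and 0.613 TPM in control cultures 3, 7, 14 and 21. The cultures with *Xist* RNA were all at or above 2.55 TPM and those with Y-linked RNA all at or below 0.969 TPM, in both groups. The group means of 2.33 ± 1.84 and 1.86 ± 1.45 TPM differed by less than the spread (exact permutation test, two-sided, p = 0.714), and the log2 fold change was -0.14 ± 0.77 (SE, adjusted p = 0.932). With *Xist* RNA as a covariate the standard error fell to 0.22 and the estimate stayed at -0.12 (adjusted p = 0.761). The gene is X-linked, and its 3' end overlaps that of *Arhgap4* in the annotation, so some reads there may belong to either.

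*Hsd11b2* (chr8:105518746-105523988) was at 1.41, 1.99, 0.755 and 0.864 TPM in the GDNF cultures and at 0.917, 1.34, 0.621 and 0.612 TPM in the controls. The group ranges overlapped, and the means of 1.25 ± 0.569 and 0.873 ± 0.343 TPM did not separate by an exact permutation test (two-sided, p = 0.257). From counts, the log2 fold change was 0.10 ± 0.46 (SE, adjusted p = 0.913). Leaving out GDNF culture 12, control culture 14 or control culture 21 brought it to -0.20, -0.055 and -0.12, below 0.

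*Nr3c2* (chr8:76898083-77245012) encodes the mineralocorticoid receptor. It was at 3.22, 2.41, 1.47 and 2.79 TPM in GDNF cultures 6, 12, 17 and 22 and at 1.09, 1.97, 0.718 and 1.71 TPM in control cultures 3, 7, 14 and 21. A single GDNF culture, number 17, lay within the control range, and the other 3 lay above it. The means were 2.47 ± 0.744 and 1.37 ± 0.573 TPM, and the exact permutation test gave the smallest p of the 10 members (two-sided, p = 0.0857), where 0.0286 is the smallest that 4 against 4 cultures can give. The log2 fold change from counts was 0.47 ± 0.35 (SE, 95% interval -0.32 to 1.26, adjusted p = 0.448).

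The glucocorticoid receptor *Nr3c1*, which binds the same response elements, was at a higher level than *Nr3c2* in every culture. The TPM ratio of *Nr3c2* to *Nr3c1* was 0.388, 0.244, 0.0995 and 0.167 in the GDNF cultures and 0.261, 0.288, 0.0697 and 0.166 in the controls. It was 0.244 to 0.388 in cultures with *Xist* RNA and 0.0697 to 0.167 in cultures with Y-linked RNA, without overlap. Between GDNF and control it differed by 0.21 on the log2 scale, within the spread (exact permutation test, two-sided, p = 0.771).

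*Sgk1* (chr10:21882184-21999903) was the member with a window that held the paired corticosteroid element. It was at 32.2, 55.6, 70.8 and 71.8 TPM in GDNF cultures 6, 12, 17 and 22. In control cultures 3, 7, 14 and 21 it was at 22.2, 38.8, 54.8 and 45.2 TPM. GDNF culture 6, the highest culture for 6 members, was here the lowest of its group, as was control culture 3. The means of 57.6 ± 18.5 and 40.3 ± 13.7 TPM did not separate by an exact permutation test (two-sided, p = 0.171). In edgeR the log2 fold change was 0.14 ± 0.25 (SE), and its 95% interval from -0.42 to 0.70 allowed a 0.748-fold to 1.63-fold level, the narrowest interval of the members on the log2 scale (adjusted p = 0.766).

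*Nedd4l* (chr18:64884480-65217826) was at 9.98, 10.8, 6.82 and 8.61 TPM in the GDNF cultures and at 5.80, 7.61, 3.71 and 8.28 TPM in the controls. The groups overlapped through GDNF culture 17, and control culture 14 was lowest. The means were 9.05 ± 1.73 and 6.35 ± 2.05 TPM (exact permutation test, two-sided, p = 0.114), and the log2 fold change from counts was 0.10 ± 0.26 (SE, adjusted p = 0.838). This gene has a long transcript of 8163 bases, and with a trend of each library in transcript length as an offset the estimate was -0.29 ± 0.34, below 0. Without control culture 14 it was -0.10. The ratio of *Sgk1* to *Nedd4l* in TPM ran from 3.23 in GDNF culture 6 to 14.8 in control culture 14 and differed between groups by less than the spread (log2 difference -0.031, exact permutation test, two-sided, p = 0.943). This ratio was 3.23 to 5.16 in cultures with *Xist* RNA and 5.46 to 14.8 in those with Y-linked RNA, without overlap.

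**Figure D3:**
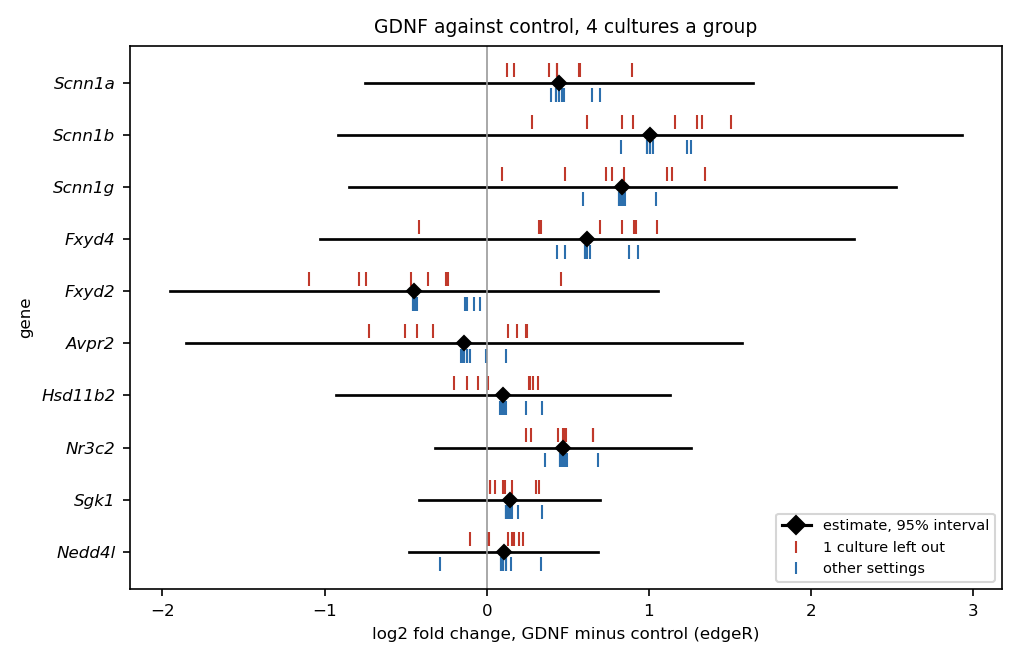
Log2 fold change of each member, GDNF minus control (horizontal axis), with its 95% interval from edgeR (black), the estimates with 1 culture left out (red ticks, above) and those under the other settings (blue ticks, below). Every interval spanned 0, and those of Sgk1 and Nedd4l were the narrowest while that of Scnn1b was the widest.

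The members varied between cultures along a line other than the GDNF pulse. In CPM, every culture with *Xist* RNA was above every culture with Y-linked RNA for 5 of the 10 members (*Scnn1b*, *Scnn1g*, *Fxyd4*, *Avpr2* and *Hsd11b2*), against 3.31% of all genes tested. In TPM this held for 4 members (all of these but *Scnn1g*), against 1.84% of genes. For *Fxyd4* the cultures with *Xist* RNA were at 13.5 to 41.1 CPM and those with Y-linked RNA at 3.42 to 5.40 CPM. For *Avpr2* the ranges were 8.25 to 11.96 CPM and 1.48 to 2.25 CPM. For *Hsd11b2* they were 1.39 to 1.84 CPM and 0.655 to 0.756 CPM, the tightest of the 5 within each kind. The separation was narrow for *Scnn1g*, with 2.12 CPM in the lowest culture with *Xist* RNA and 1.92 CPM in the highest with Y-linked RNA. In TPM it was narrow for *Scnn1b* (1.70 against 1.63 TPM) and *Hsd11b2* (0.917 against 0.864 TPM).

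Relative to each gene's own mean log2 CPM, 9 members were above it in GDNF culture 6, 9 in GDNF culture 12, 9 in control culture 7 and 7 in control culture 3. In GDNF cultures 17 and 22 and control cultures 14 and 21 the numbers were 1, 2, 1 and 2. Control culture 14 was the lowest of the 8 in TPM for 7 members and GDNF culture 6 the highest for 6. *Sgk1* was the member that ran the other way, with the cultures with *Xist* RNA at 250.4 to 403.9 CPM and those with Y-linked RNA at 380.9 to 514.7 CPM, which overlap.

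Of the 10 marker lists, 3 separated the kinds of culture in summed TPM. Summed thick ascending limb markers, led by *Cldn19*, were 4.90 to 7.14 TPM in cultures with *Xist* RNA and 0.780 to 2.07 TPM in those with Y-linked RNA, although *Slc12a1* of that list, at 0.108 to 0.340 TPM over all cultures, did not separate them. Summed distal convoluted tubule markers, led by *Calb1* and with *Pvalb* at 0, were 11.5 to 45.7 TPM and 2.39 to 10.7 TPM, and *Calb1* made up most of the sum in cultures with *Xist* RNA. Endothelial markers, led by *Emcn*, separated the other way, at 9.28 to 15.1 TPM and 16.4 to 31.1 TPM, and *Emcn* made up most of that sum. The other endothelial markers had means of 0.498 TPM or less. Among them *Pecam1* separated the same way, while *Kdr* and *Cdh5* overlapped between the kinds. Summed principal cell markers overlapped between the kinds, at 9.64 to 29.7 TPM and 7.67 to 22.7 TPM, as did stromal markers, led by *Acta2*, at 194 to 1149 TPM and 635 to 1628 TPM. Proximal tubule markers (3.99 to 11.9 TPM and 7.39 to 12.7 TPM), intercalated cell markers (5.49 to 11.1 TPM and 3.30 to 7.08 TPM) and podocyte, immune and epithelial markers overlapped as well. The part of cell composition, or of anything else that goes with the kind of culture, in these levels was not tested.

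Within each kind the GDNF and control values of a member came from 2 cultures a group and are given without a test. The difference in mean log2 CPM, GDNF minus control, was 0.49 for *Fxyd4* where *Xist* RNA was found and 0.29 where Y-linked RNA was found. For *Scnn1b* it was 1.07 and 1.32, and for *Nr3c2* 0.43 and 0.57. For *Fxyd2* it was -0.97 and 0.64, on opposite sides of 0. With *Xist* RNA as a covariate over all 8 cultures, the log2 fold change was 0.48 ± 0.32 (SE) for *Fxyd4* and 0.83 ± 0.54 for *Scnn1b*, and no member passed (smallest adjusted p = 0.365, edgeR).

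**Figure D4:**
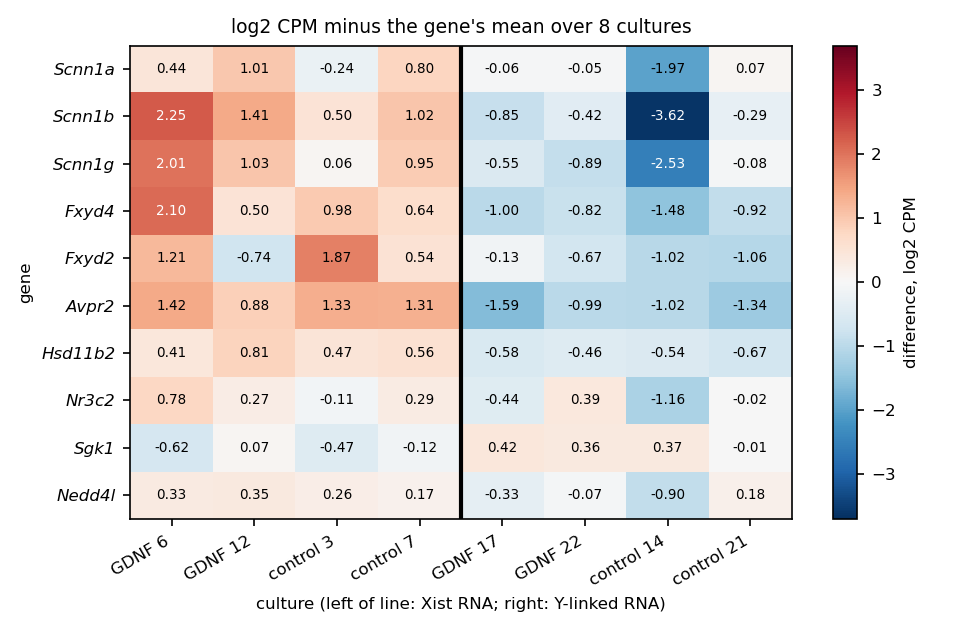
Heat map of log2 CPM minus the gene's mean over the 8 cultures, with the 10 members in rows and the cultures in columns, those with Xist RNA left of the line and those with Y-linked RNA right of it. Most members were above their mean on the left and below it on the right, with Sgk1 the other way, and the lowest value, -3.62, was that of Scnn1b in control culture 14.

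The genes whose log2 CPM was most like that of a member over the 8 cultures, among those with a mean of at least 5 CPM, are given as a description. For *Fxyd4* they were *Man2c1os*, *Lhx1os* and *Emx2os* (Pearson's r = 0.987, 0.979 and 0.977), which are annotated as antisense transcripts whose reads cannot be told from those of the opposite strand without stranded counting. For *Scnn1a* they were *Ephb2*, *Plekha7* and *Lama5* (r = 0.962, 0.960 and 0.956). For *Hsd11b2* they were *Tnfsf10*, *Snx24* and *Col9a3* (r = 0.967, 0.955 and 0.955), and for *Sgk1* they were *Sec24d*, *Ddr2* and *Rora* (r = 0.994, 0.991 and 0.990). These are the highest of about 11460 genes over 8 points that share libraries and the 2 kinds of culture.

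Around the members, 9 lists of pathway genes were examined, with 89 genes in all, of which 85 were tested. None passed an adjusted p of 0.05 in edgeR. At an unadjusted p of 0.05, 12 were higher and 11 lower in the GDNF cultures (27.1%, against 22.1% of all genes), and the median log2 fold change was 0.046, against 0.033 over all genes. Of all 16557 genes tested, 1531 were higher and 2134 lower at that threshold.

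Among the proteases that cleave and activate ENaC and their inhibitors, 7 of 8 genes were tested and 0 passed an unadjusted p of 0.05, with a median of -0.0025. The inhibitors *Spint2* (269.9 TPM over all cultures) and *Serpine2* (237 TPM) and *Spint1* (38.2 TPM) were the most abundant. Of 10 genes of ENaC turnover and trafficking, 3 were higher and 4 lower at an unadjusted p of 0.05. Those higher were the ubiquitin ligases *Wwp2* (log2 fold change 0.33) and *Itch* (0.47) and the syntaxin *Stx1a* (0.44). Those lower were the 14-3-3 proteins *Ywhae* (-0.74), *Ywhaz* (-0.52) and *Ywhab* (-0.37), which bind phosphorylated NEDD4L, and the galectin *Lgals3* (-0.98). *Nedd4*, the paralogue of *Nedd4l*, was at 137 TPM, well above *Nedd4l*, and its log2 fold change was 0.10. Adjusted p-values of these 7 genes were 0.167 to 0.223.

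In a list of 14 genes that regulate SGK1 or, as *Sgk2* and *Sgk3*, are its paralogues, 5 were higher at an unadjusted p of 0.05 and 0 lower, with a median of 0.27. This median was 0.018 with the length trend as offset and 0.47 with total counts alone. They were *Rictor* (0.45), *Mtor* (0.52) and *Mlst8* (0.40) of the mTOR complexes, the kinase *Pik3ca* (0.44) and the receptor *Igf1r* (0.46). *Mtor*, *Rictor* and *Mlst8* belong to mTORC2, which phosphorylates SGK1. *Mapkap1* (-0.14), also of mTORC2, was an abundant member of the list that did not pass. In the list of corticosteroid receptors, chaperones and enzymes, 0 of 8 were higher and 2 lower, the receptor chaperone *Hsp90ab1* (-0.48) and the co-chaperone *Ptges3* (-0.51), with a median of -0.43, or -0.19 with total counts alone. The values of *Nr3c1* (0.29) and the immunophilin *Fkbp4* (-0.38) did not pass.

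Of 12 corticosteroid-responsive genes, 1 passed an unadjusted p of 0.05, *Tsc22d3*, a glucocorticoid-induced leucine zipper gene, with a log2 fold change of -0.56. *Lcn2* (0.16) and *Dusp1* (-0.51) were abundant members of the list that did not pass. Of 10 genes tested among the Na,K-ATPase subunits and other FXYD proteins, 3 were lower, namely *Atp1b3* (-0.54), *Fxyd1* (-1.60) and *Fxyd5* (-0.84), and the median was -0.26. It was -0.027 with total counts alone and -0.035 without control culture 3. *Fxyd3*, at 116 TPM the most abundant FXYD gene, had a log2 fold change of -0.41 and did not pass. In the list for water and potassium transport, 7 genes were tested and 1 was higher, the potassium channel *Kcnma1* (0.86). The 7 include *Slc12a3* (0.76), which is also in the list of distal convoluted tubule markers. The list median of 0.69 was the value of *Aqp4*, a gene at a mean of 0.171 TPM with a standard error of 0.81. *Kcnj16* (2.98 TPM) was the most abundant of that list, *Aqp3* was at 0.719 TPM, and *Aqp2* and *Kcne1* were below the filter.

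Of 8 WNK pathway genes, 2 were higher, *Wnk4* (0.86, adjusted p = 0.167) and *Wnk3* (0.89, adjusted p = 0.212), both kinases that set sodium chloride transport in the distal nephron. *Wnk4* was at 10.7 ± 1.54 TPM in the GDNF cultures and 4.52 ± 1.24 TPM in the controls (SD, n = 4), without overlap. The more abundant *Cul3* (0.057), *Stk39* (-0.016) and *Oxsr1* (0.033) did not pass. Of 11 genes of vasopressin signalling, 1 was higher, the kinase anchor *Akap13* (0.70), and 1 lower, the regulatory subunit *Prkar1a* of protein kinase A (-0.40). *Gnas*, at 427 TPM, had a log2 fold change of -0.23, and *Prkacb* one of 0.046.

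**Figure D5:**
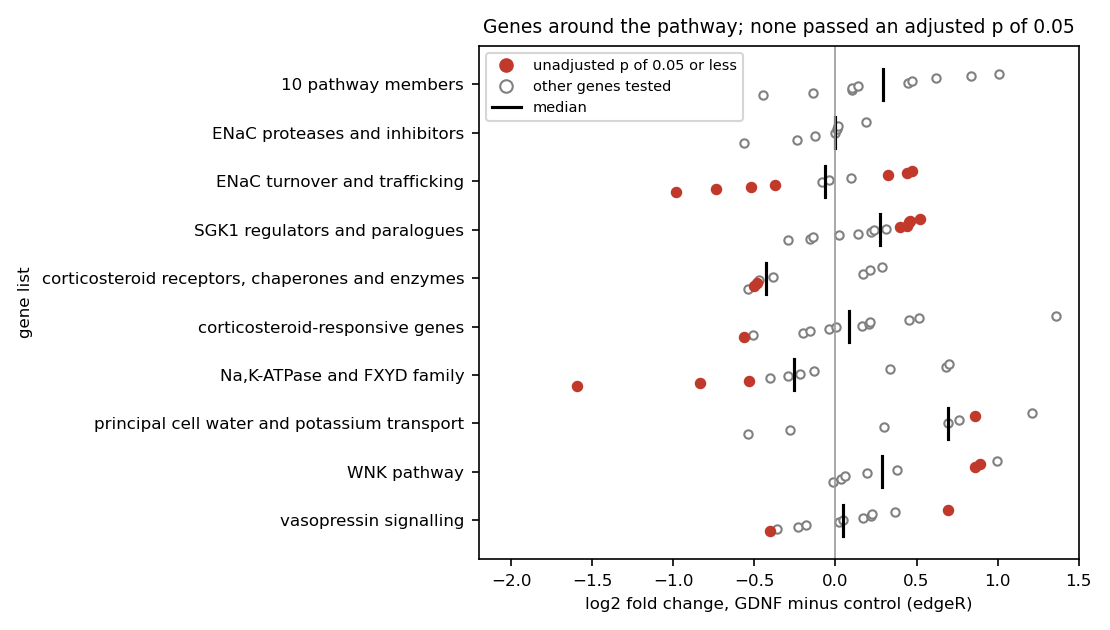
Log2 fold changes, GDNF minus control (horizontal axis), of the 10 members and of the genes tested in each of 9 pathway lists, with filled points for an unadjusted p of 0.05 or less and a black bar at each median. No member was filled, and list medians ran from -0.43 (corticosteroid receptors, chaperones and enzymes) to 0.69 (water and potassium transport).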

How the data were processed

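RNA from 8 tubuloid cultures, 4 with and 4 without a GDNF pulse, was made into SMART-Seq v4 libraries with poly-A selection. The submitters' processing notes name STAR, featureCounts and DESeq2 and the builds mm10 and GRCm38, with no versions. The authors' counts are not normalized and are given for each RefSeq transcript, with a read shared by transcripts of a gene counted for each. The deposited FPKM values were used only to obtain transcript lengths, and the deposited TPM values were scaled by the authors over all listed transcripts. The strand setting and the rule for reads that fit several genes are not given in the sources used here.

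Counts were summed per symbol. R 4.3.3 with edgeR 4.0.16 was used for the main fit, with low counts removed by filterByExpr, TMM factors, and the functions glmQLFit and then glmQLFTest. The p-values of the 16557 genes left were adjusted together (Benjamini-Hochberg, threshold 0.05). The standard error was taken as the absolute log2 fold change divided by the square root of the F statistic. Levels are the TPM values of each gene's most counted transcript (by mean over cultures), compared by exact permutation tests over 70 assignments. Log2 CPM values used a prior count of 1. Total counts of 72991721 to 97490625 per culture made counting error small beside the spread between cultures, except for genes with few counts. Alternatives were DESeq2 1.42.0, limma-voom (limma 3.58.1), other scalings and filters, 1 transcript per gene, a length trend as offset (splines with 5 degrees of freedom), *Xist* RNA as a covariate, log2(TPM + 1) and each culture left out in turn. A culture's kind was set by the larger of its *Xist* TPM and its summed Y-linked TPM. The fits were tested on simulated counts. SciPy 1.17.1 and NumPy 2.4.6 served for the exact tests, pandas 2.3.3 for the tables and matplotlib 3.10.9 for the plots, under Python 3.11.15.

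The members, the gene lists and the tests were chosen with earlier results of these data known. Named in the text are all members, pathway list genes with an unadjusted p of 0.05 or less, up to 3 genes of highest mean TPM per pathway list, the most abundant gene of each marker list, and the 3 genes most like *Fxyd4*, *Scnn1a*, *Hsd11b2* and *Sgk1*. Named in addition were *Aqp2*, *Aqp4*, *Pvalb*, *Kcne1*, *Nr3c1*, *Slc12a1*, *Slc12a3*, *Slc4a1*, *Slc27a2*, *Cd3e*, *Pecam1*, *Cdh5*, *Kdr*, *Sgk2*, *Sgk3* and *Arhgap4*. Some genes that this rule would name are not reported here. Gene positions were taken from RefSeq on GRCm38.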

Additional observations from a re-analysis of the deposited data

How the results depend on the processing

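Over the alternatives tried, the call that no member passed the adjusted p of 0.05 was the same in every setting. The number of genes called over the whole table was 0 in edgeR and 1057 in DESeq2, and 0 with any culture left out. Of 170 alternative values of the members' log2 fold changes, 12 were on the other side of 0, as were 6 of 110 TPM differences and 7 of 45 log2 TPM ratios. No cause of these changes was tested. The log2 fold change of *Avpr2* was 0.12 with total counts alone, and that of *Nedd4l* was -0.29 with the length trend as offset. In CPM the difference of means, GDNF minus control, was -6.81 for *Fxyd2* and -0.611 for *Avpr2*. With 1 culture left out, log2 fold changes ranged from -0.42 to 1.05 for *Fxyd4*, -1.09 to 0.46 for *Fxyd2*, -0.72 to 0.25 for *Avpr2*, -0.20 to 0.32 for *Hsd11b2* and -0.10 to 0.22 for *Nedd4l*. TPM differences then ranged from -6.01 to 8.67 for *Fxyd2* and from -0.231 to 1.04 for *Avpr2*, and log2 TPM ratios from -0.37 to 0.43 (*Scnn1g* to *Scnn1a*), -0.22 to 0.55 (*Nr3c2* to *Nr3c1*) and -0.28 to 0.38 (*Sgk1* to *Nedd4l*). The number of genes at an unadjusted p of 0.05 was 2192 to 4104 with 1 culture left out, and fell most without GDNF culture 22 (2192), GDNF culture 12 (2321) or control culture 3 (2359). Of 153 alternative list medians, 10 moved by more than the spread between cultures, 7 of them with total counts alone, where that of ENaC turnover and trafficking went to 0.15, above 0. Without control culture 21, that of the corticosteroid-responsive genes was -0.074, below 0. With 3 against 4 cultures the exact test cannot give a p under 0.0571. No paired analysis was run. The groups share no culture numbers, and the labels do not say which cultures, if any, came from the same kidneys. If GDNF and control cultures were matched in this way, the unpaired tests counted the spread between kidneys as error. Depth limited the members least expressed, such as *Scnn1a* with 27 counts in its lowest culture.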

Other observations

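Markers of other cell types were measured in the same 8 cultures. Epithelial markers, led by *Krt8*, summed to 655 to 970 TPM in the GDNF cultures and 335 to 2161 TPM in the control cultures. Intercalated cell markers, led by *Atp6v0d2*, summed to 3.30 to 11.1 TPM over all cultures, with *Slc4a1* at no more than 1 count. Proximal tubule markers were led by *Slc5a2* at 3.75 to 12.2 TPM. The other proximal tubule markers were near the floor, the next being *Slc27a2* with a mean of 0.236 TPM. Podocyte markers were led by *Wt1* at 3.26 to 38.5 TPM and endothelial markers by *Emcn* at 9.04 to 30.2 TPM. Immune markers were led by *Cd68* at 2.38 to 6.4005 TPM, with *Cd3e* at 0. No member had a culture that stood far from the other 3 of its group in TPM by Dixon's criterion (0 of 20 groups of 4).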
